A study of Mus musculus with 10 samples.

Results

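The bone morphogenetic protein (BMP) pathway was followed through 8 genes: the ligands Bmp2 and Bmp4, the receptor Bmpr1a, the inhibitory Smads Smad6 and Smad7, and the target genes Id1, Id2 and Id3. They were taken by gene symbol from the platform annotation, and all 8 were found among the 22180 measured genes, each with 1 probe set. Expression was measured on 10 microarrays of sorted mouse intestinal cells, 4 labelled as Flattop-expressing crypt cells and 6 as stem cells with high Lgr5 and GFP (Lgr5-high). Mice of strain C57BL/6J carrying Lgr5-EGFP-IRES-creERT2 gave the Lgr5-high cells, and mice of a mixed C57BL/6J, CD1, 129/SvJ background carrying FltpT2AiCre and Gt(ROSA)26mTmG gave the Flattop cells. All mice were 3 to 6 months old, no treatment other than dissociation and sorting is named, and both groups carry a Cre allele. The mTmG reporter changes membrane colour where Cre, here expressed from the Flattop gene, is active, and the change is passed on to the descendants of such a cell. The gate of the sort is not given in the sources used here. Genotype, strain and group coincide and cannot be told apart. Whether replicates are separate animals is not stated, and the p-values therefore cover the spread between arrays, part of which may be technical.

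BMP ligands bind type I receptors such as Bmpr1a together with type II receptors, and the receptors phosphorylate Smad1, Smad5 and Smad9, which enter the nucleus with Smad4. Id genes are direct targets of this signal and encode proteins that bind E proteins and keep them from DNA, while Smad6 and Smad7 are induced as feedback inhibitors. In the mouse small intestine BMP activity is low at the crypt base and high on the villus. The signal restrains stem cell renewal, and mesenchyme is a main source of Bmp4.

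RefSeq promoter windows (GRCm38.p6) were matched for 5 of the 8 genes, Bmp4, Bmpr1a, Id2, Id3 and Smad6. The letters GGCGCC, found in BMP response elements, and GTCTAGAC, the palindrome that Smads bind in vitro, were searched in the 300 bases from 250 before to 50 after each start. Both sequences read the same on either strand and do not overlap each other in these windows. Shown here are Id2, which had the largest difference between groups among these genes, Id3, whose difference was closest to 0, and Smad6, the feedback inhibitor. Each is given 5′ to 3′ on the gene's strand, ending at the base before the start or, for Smad6, 4 bases after it, with matches in capitals. Id2 lies at chr12:25096093-25096342 on the minus strand, Id3 at chr4:136143572-136143821 on the plus strand and Smad6 at chr9:64022056-64022309 on the minus strand.
Id2: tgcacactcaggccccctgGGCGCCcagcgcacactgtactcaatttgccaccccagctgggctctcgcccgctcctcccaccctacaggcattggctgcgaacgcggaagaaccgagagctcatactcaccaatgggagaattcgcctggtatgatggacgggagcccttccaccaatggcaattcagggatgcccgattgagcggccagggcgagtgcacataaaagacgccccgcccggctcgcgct
Id3: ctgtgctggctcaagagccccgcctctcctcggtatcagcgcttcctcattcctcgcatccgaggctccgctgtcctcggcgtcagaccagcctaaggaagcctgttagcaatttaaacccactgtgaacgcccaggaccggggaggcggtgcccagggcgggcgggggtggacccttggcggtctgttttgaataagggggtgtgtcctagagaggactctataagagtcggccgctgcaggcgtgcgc
Smad6: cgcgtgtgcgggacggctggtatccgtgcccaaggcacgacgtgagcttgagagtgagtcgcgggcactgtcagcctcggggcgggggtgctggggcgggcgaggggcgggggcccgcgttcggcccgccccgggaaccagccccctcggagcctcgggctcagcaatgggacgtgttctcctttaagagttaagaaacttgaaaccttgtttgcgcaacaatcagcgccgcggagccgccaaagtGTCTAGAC
GGCGCC occurred in 2 of the 5 windows, once in Id2 and once in Bmpr1a, and in 11.9% of all 32851 windows of this length. GTCTAGAC occurred in the Smad6 window only, across the start used for that window, and in 0.213% of all windows. The starts used for Smad6 and Bmpr1a lay inside the annotated genes, which begin at chr9:64022085 and chr14:34503336 on the minus strand. The E-box CANNTG, the site that E proteins bind, was in 3 of the 5 windows and in 72.3% of all. These matches describe the letters and say nothing of binding in these cells.

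Values are log2 intensities, so a difference of 1 is a 2-fold change. Array medians lay between 4.56 and 4.77, and Pearson correlations were 0.869 to 0.941 among Flattop arrays, 0.854 to 0.915 among Lgr5-high arrays and 0.825 to 0.931 across the groups. Lgr5 itself differed by -1.10 (limma adjusted p = 0.533) and Cfap126, which encodes Flattop, by 0.43 (adjusted p = 0.678), and the groups overlapped in both. Among arrays with title numbers 1 to 8 the differences were -0.16 for Lgr5 and -0.44 for Cfap126. Among those with numbers 38 to 46 they were -2.04 and 1.29 (interaction limma adjusted p = 0.597 and 0.244). There the groups, 2 Flattop against 3 Lgr5-high arrays, did not overlap in either gene. With so few arrays this can easily arise, and its share over all genes was not computed. Flattop replicate 3 read 6.44 for Lgr5, against 8.21 to 9.65 on the other Flattop arrays. Epithelial markers had high list means in both groups, 9.41 to 10.42 in Flattop and 9.18 to 9.57 in Lgr5-high arrays. Of these 9 markers 1 passed limma as higher, Krt20, with means of 9.78 in Flattop and 5.31 in Lgr5-high arrays (adjusted p = 0.0025). Without adjustment 2 were higher (p under 0.05). Lymphocyte markers (10 of 11 higher in Flattop by limma) had list means of 8.31 to 10.54 in Flattop and 4.41 to 4.85 in Lgr5-high arrays. Of 9 crypt base stem cell markers 0 passed limma, 6 were lower in Flattop at an unadjusted p under 0.05, and their median difference was -0.79. No gene of the lists for B and plasma cells, macrophages and dendritic cells, endothelium or enteric glia and neurons passed limma, though without adjustment 2 were higher and 2 lower (p under 0.05), and their list means were at most 4.96 on every array.

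None of the 8 genes differed between the groups by limma with Benjamini-Hochberg adjustment over all genes, with adjusted p from 0.297 to 0.982. Among all genes 203 passed an adjusted p of 0.05, which is 0.915% (0.902% higher and 0.0135% lower in Flattop), so a count of 0 among 8 is what this background would usually give. At an unadjusted limma p under 0.05 there were 2, Id2 and Bmp2, both with higher means in Flattop, where 9.77% of all genes passed. The groups overlapped in all 8, and did not overlap in 2.98% of all genes. Of the 8 differences 5 were positive and 3 negative, with a median of 0.14, against a median of -0.06 over all genes. The 95% interval of the difference spanned 0 for the 6 others. The exact permutation test over arrays, two-sided with 210 regroupings and a smallest possible p of 0.0048, was computed for each of the 8 and is given unadjusted.

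**Figure D1:**
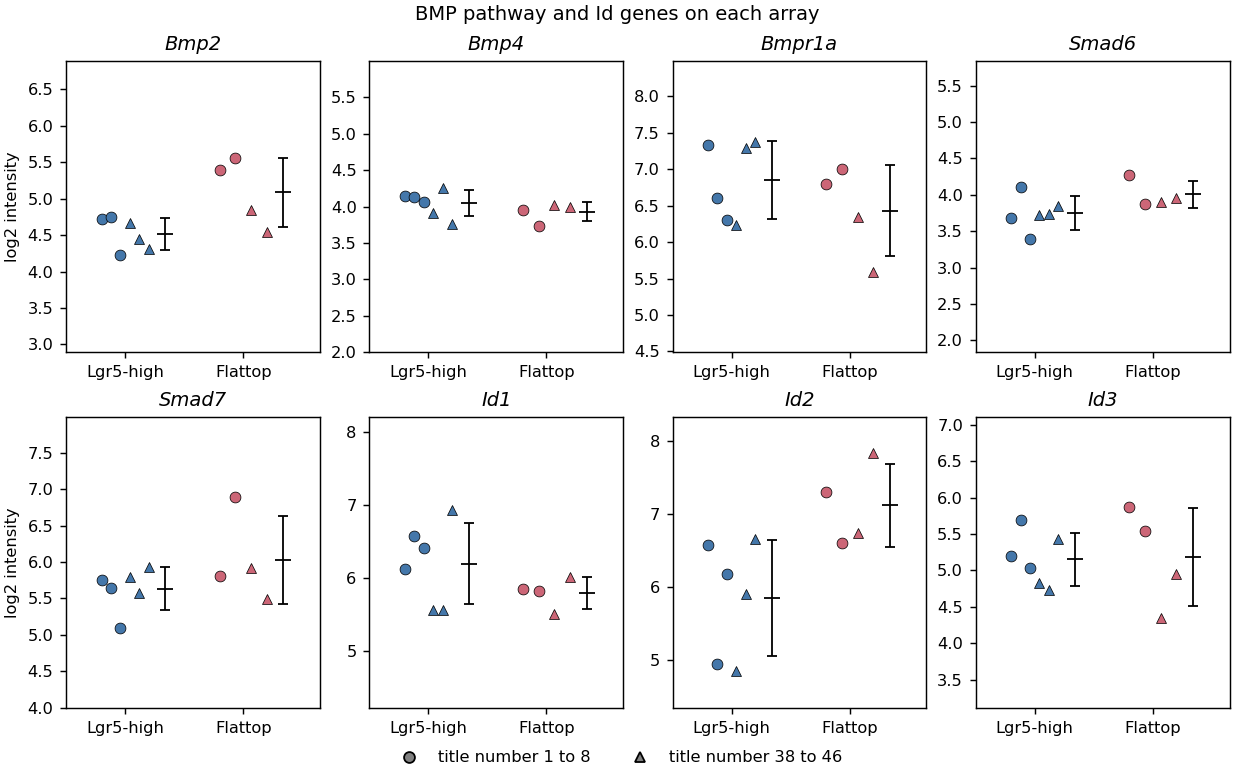
Log2 intensity (y axis, with an axis of the same length in each panel) of each gene on every array, Lgr5-high (blue, n = 6) beside Flattop (red, n = 4), with circles for title numbers 1 to 8 and triangles for 38 to 46. Bars are mean ± SD. In the Id2 panel 3 of 4 Flattop arrays lie above all Lgr5-high arrays, and the same holds for 3 of 4 in the Bmp2 panel. The groups overlap in the other panels too.

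Bmp2, a ligand that intestinal epithelium itself can make, read 5.40, 5.56, 4.85 and 4.54 on Flattop replicates 1 to 4, against a lowest value of 4.22, a median of 4.55 and a highest of 4.75 on Lgr5-high arrays. Flattop replicates 1 to 3 were above every Lgr5-high array, and replicate 4 lay inside their range. The means were 5.09 ± 0.47 (SD, n = 4) and 4.52 ± 0.22 (SD, n = 6), and the difference of 0.57 (SE 0.21, 95% interval 0.11 to 1.03) did not pass limma (p = 0.0207, adjusted p = 0.384, exact permutation p = 0.0333). Bmp2 was below the array's own median of all probe sets on 6 of 10 arrays. Without detection calls its size at that level is uncertain.

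Bmp4, the ligand mainly of mesenchyme, read 3.96, 3.74, 4.03 and 3.99 in Flattop and 3.76 to 4.26 (median 4.10) in Lgr5-high arrays. It was below the array median on all 10 arrays. The groups overlapped, though all 4 Flattop values were below the Lgr5-high median and replicate 2 was just below every Lgr5-high array. The difference was -0.12 (SE 0.13, 95% interval -0.40 to 0.17, limma adjusted p = 0.779, exact permutation p = 0.305). The interval leaves room for at most a 1.12-fold higher or a 0.757-fold level in Flattop, but a dim probe set may understate a change. Markers of mesenchyme had list means of 4.70 to 4.997 in Flattop and 4.68 to 5.004 in Lgr5-high arrays, and 0 of 14 passed limma (1 higher at an unadjusted p under 0.05). Of these 14 markers 7 had means below the array median in Flattop and 6 in Lgr5-high arrays. The fibroblast marker Pdgfra and the proteoglycan gene Lum were at 3.48 and 3.39 in Flattop, under the array median. Vim, the 1 higher marker, went the other way, with means of 7.075 in Flattop and 6.11 in Lgr5-high arrays. It was above the array median on all 10 arrays, and its difference was 0.96 (SE 0.29).

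Bmpr1a, the type I receptor through which the intestinal epithelium receives BMP signals, read 6.80, 7.003, 6.34 and 5.60 in Flattop, against 6.23 to 7.38 (median 6.95) in Lgr5-high arrays. The lowest value of all was Flattop replicate 4, and the other Flattop arrays lay within the Lgr5-high range. It was above the array median on all 10 arrays. The difference of -0.42 (SE 0.33, 95% interval -1.16 to 0.31) did not pass limma (adjusted p = 0.6995, exact permutation p = 0.286). Without Flattop replicate 4 it was -0.145.

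Smad6, which blocks BMP receptor signalling, read 4.28, 3.88, 3.91 and 3.96 in Flattop and 3.40 to 4.10 (median 3.73) in Lgr5-high arrays. All 4 Flattop values were above the Lgr5-high median, but 1 alone, that of replicate 1, was above the highest Lgr5-high array. The difference was 0.26 (SE 0.15, limma adjusted p = 0.621, exact permutation p = 0.105), and Smad6 lay below the array median on all 10 arrays.

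Smad7, which inhibits both BMP and TGF-beta receptors, read 5.80, 6.90, 5.91 and 5.49 in Flattop and 5.09 to 5.94 (median 5.69) in Lgr5-high arrays. Flattop replicate 2 stood alone above every Lgr5-high array, and replicate 4 was below the Lgr5-high median. The difference was 0.39 (SE 0.26, limma adjusted p = 0.658, exact permutation p = 0.219), and without Flattop replicate 2 it was 0.10.

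Id2 had the largest difference of the 8 genes. It read 7.31, 6.60, 6.74 and 7.84 on Flattop replicates 1 to 4, against a lowest of 4.84, a median of 6.04 and a highest of 6.65 on Lgr5-high arrays. All 4 Flattop arrays were above the Lgr5-high median and 3 were above its highest value, with replicate 2 just inside the range. Lgr5-high arrays were themselves spread over 1.81 log2 units, with replicates 2 and 4 at 4.95 and 4.84 and the other 4 between 5.90 and 6.65. The means were 7.12 ± 0.57 (SD, n = 4) and 5.85 ± 0.79 (SD, n = 6). This difference of 1.27 (SE 0.41), or 2.41-fold with a 95% interval of 1.29 to 4.52, did not pass limma (p = 0.0103, adjusted p = 0.297, exact permutation p = 0.0286). A smaller p was found for 3.46% of all genes. It stayed between 1.03 and 1.49 under every alternative run, with adjusted p from 0.215 to 0.610.

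Id2 is known from innate and intraepithelial lymphocytes as well as from differentiating epithelium, and the marker list means of lymphocytes and enterocytes were also higher in Flattop. The lymphocyte list means on Flattop replicates 1 to 4 were 8.31, 8.81, 10.54 and 9.93, and the enterocyte list means 9.40, 9.63, 8.96 and 10.37. Flattop replicate 4 had the highest Id2 and the highest enterocyte mean, and replicate 3 had the highest lymphocyte mean and the second lowest Id2. Replicate 1 had higher Id2 than replicate 2, with lower lymphocyte and enterocyte means. With group means removed, Pearson r of Id2 over the 10 arrays was -0.03 with lymphocyte means and 0.36 with enterocyte means. Of the 10 enterocyte genes 5 passed limma as higher, where 0.902% of all genes did. All 10 were higher at an unadjusted p under 0.05 (5.97% of all genes). In 7 the groups did not overlap (2.98% of all genes). The enterocyte list means were 6.49 to 7.43 in Lgr5-high arrays. Among the 6 Lgr5-high arrays Id2 varied by 1.81, and the lymphocyte means lay between 4.41 and 4.85. Over these arrays alone r was -0.23 with lymphocyte means and 0.14 with enterocyte means. The part of either cell type in the Id2 difference was not tested, and in sorted pools more cells with Id2 and more Id2 per cell cannot be told apart.

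Id1 had a lower mean in Flattop. It read 5.84, 5.82, 5.50 and 6.02 there, against 5.56 to 6.93 (median 6.27) in Lgr5-high arrays, so that all 4 Flattop arrays were below the Lgr5-high median and replicate 3 was below every Lgr5-high array. The difference of -0.40 (SE 0.27, 95% interval -0.998 to 0.199) did not pass limma (adjusted p = 0.666, exact permutation p = 0.205). Without Lgr5-high replicate 6, the highest, it was -0.253. The SD was 0.55 over the 6 Lgr5-high arrays and 0.22 over the 4 Flattop arrays. Lgr5-high replicates 4 and 5 read 5.56 and 5.56 for Id1, and their dissociation response means, over early genes such as Fos and Jun, were 6.89 and 6.49. The other Lgr5-high arrays read 6.13 to 6.93 for Id1 and had dissociation means of 7.73 to 8.46. Flattop arrays had dissociation means of 7.55 to 8.37 with Id1 between 5.50 and 6.02. Of the 12 dissociation genes 0 passed limma (1 higher at an unadjusted p under 0.05), and their part in the Id1 values was not tested.

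Id3, a close relative of Id1, read 5.87, 5.55, 4.35 and 4.96 in Flattop and 4.73 to 5.69 (median 5.12) in Lgr5-high arrays. Flattop held both the highest and the lowest of the 10 values. The difference was 0.03 (SE 0.29, 95% interval -0.62 to 0.68, limma adjusted p = 0.982, exact permutation p = 0.929). Its sign turned without Flattop replicate 1 (-0.20) or 2 (-0.09), without Lgr5-high replicate 4 (-0.035) or 5 (-0.056), and after a second quantile normalisation (-0.068), so no direction is given for Id3. The lowest Lgr5-high values of Id3 were those of replicates 4 and 5 (4.83 and 4.73), the same arrays as for Id1, with the lowest dissociation means. Other lists ran as closely with these values. Over the 6 Lgr5-high arrays Pearson r of Id3 was 0.85 with dissociation, -0.87 with enterocyte and 0.87 with B and plasma cell means. For Id1 it was 0.81 with dissociation and -0.84 with enterocyte means. With group means removed, r of Id3 over the 10 arrays was 0.48 with dissociation and 0.76 with crypt base stem cell means. The part of dissociation or of any cell type in the Id3 values was not tested either.

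**Figure D2:**
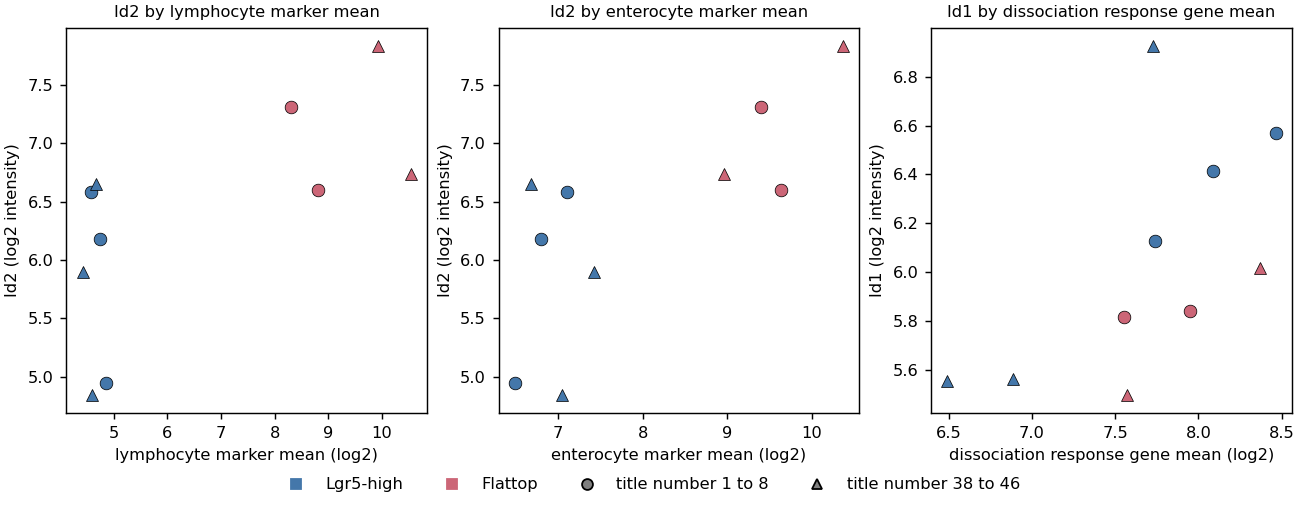
Id2 (log2 intensity, y axis) by the mean of lymphocyte markers and of enterocyte markers, and Id1 by the mean of dissociation response genes (log2, x axes), 1 point per array, Lgr5-high blue and Flattop red, circles for title numbers 1 to 8 and triangles for 38 to 46. Both groups are separated along the lymphocyte and enterocyte axes, while Id2 spans 4.84 to 6.65 within Lgr5-high, and the 2 Lgr5-high arrays with dissociation means of 6.89 and 6.49 have Id1 at 5.56.

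Each group holds arrays with title numbers from 1 to 8 (2 Flattop, 3 Lgr5-high) and from 38 to 46 (2 and 3). What the numbers mark is not stated. Id2, Bmp2, Smad6 and Id1 had differences of the same sign in both ranges, and the other 4 did not. The Id2 difference was 1.06 in the low and 1.49 in the high range, and that of Id1 -0.54 and -0.26. Bmp2 differed by 0.92 in the low and by 0.22 in the high range, and Smad7 by 0.86 and -0.07. For Bmpr1a the differences were 0.15 and -0.997, and for Id3 they were 0.40 and -0.34. None of the 8 interactions of group and range passed limma (adjusted p 0.673 to 0.906), and 0.00902% of all genes did. The smallest unadjusted limma p was 0.0506, for Bmp2.

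**Figure D3:**
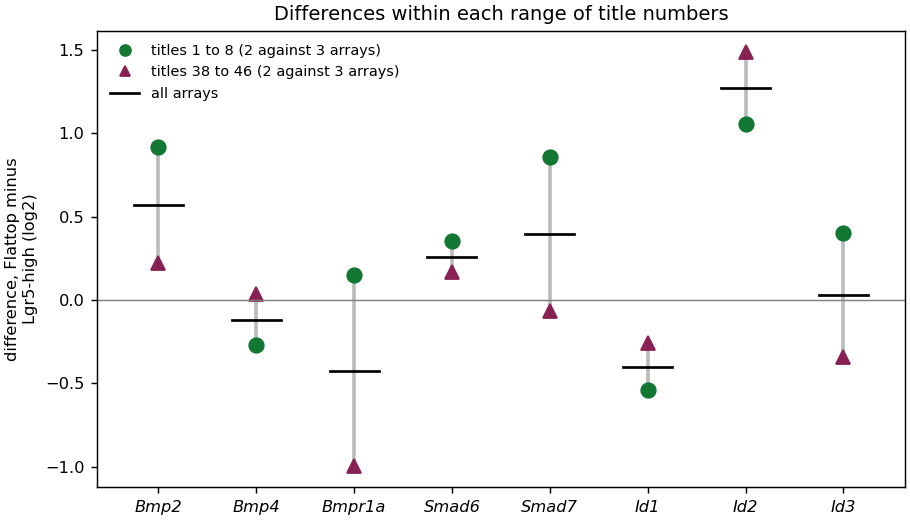
Difference in log2 intensity, Flattop minus Lgr5-high (y axis), for each gene within title numbers 1 to 8 (green circles), within 38 to 46 (purple triangles) and over all arrays (black bars). Id2 is above 0 in both ranges at 1.06 and 1.49, while Bmpr1a lies at 0.15 and -0.997.

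The wider pathway was described through 8 lists with 80 measured genes, the 8 included. By limma 1 of the 80 passed as higher, Apoa4 among the villus tip genes, and 0 as lower. At an unadjusted p under 0.05, 9 were higher and 2 lower, where 5.97% of all genes were higher and 3.80% lower. List medians were -0.07 for 13 ligands, -0.14 for 13 antagonists, -0.06 for 11 receptors and coreceptors, 0.24 for 12 Smads and Smad regulators, 0.14 for 10 target genes and 0.12 for 12 genes of the TGF-beta branch. They were -0.19 for 7 E proteins and partners and 0.29 for 6 villus tip genes. Over all genes the median was -0.06, with 61.5% of differences negative. Of the ligands 7 of 13 had means below the array median in each group.

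Among receptors the coreceptor Rgmb, which binds BMP ligands and is also counted among stem cell markers, stood apart. It read 9.43, 9.41, 8.37 and 8.49 in Flattop and 9.57 to 10.49 in Lgr5-high arrays, so the groups did not overlap. The difference of -1.06 (SE 0.26, limma adjusted p = 0.124) did not pass over all arrays but did with title number range as a block or after a second quantile normalisation. The type II receptor Acvr2a read 6.67, 7.74, 7.43 and 7.51 in Flattop and 5.11 to 7.04 in Lgr5-high arrays, 3 of 4 Flattop arrays being above all others. Its difference of 1.18 (SE 0.39) did not pass (limma adjusted p = 0.309), and it was 1.20 in the low and 1.16 in the high range. The type II receptor Bmpr2 differed by 0.05, as the mean of -0.93 in the low and 1.03 in the high range (interaction limma adjusted p = 0.616), and the decoy receptor Bambi by 0.42 (SE 0.25).

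Of the antagonists, which bind ligands outside the cell, 10 of 13 differences were negative, against 61.5% over all genes. By limma 0 passed, with 0 at an unadjusted p under 0.05. Means were below the array median for 9 of the 13 in Flattop and for 7 in Lgr5-high arrays. The smallest p-values were those of Fstl1 (-0.57, limma adjusted p = 0.515) and Twsg1 (-0.65, adjusted p = 0.566). Noggin (Nog) and Grem1 differed by -0.16 and 0.09. Of the Smads and Smad regulators, 9 of 12 differences were positive. Skil, a repressor of Smad transcription, differed by 0.64 (limma adjusted p = 0.504), the receptor-activated Smad1 by 0.17, Smad5 by 0.22 and Smad9 by -0.24, and the shared Smad4 by -0.22. In the TGF-beta branch 7 of 12 differences were positive and 5 negative. Smad3 differed by 0.98 (limma adjusted p = 0.447), with 1.74 in the low and 0.21 in the high range (interaction limma adjusted p = 0.651). Tgif1 went the other way, by -0.61 (limma adjusted p = 0.513), while Inhbb differed by 0.28 and Tgfb1 by 0.31.

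Id4, the remaining Id gene, differed by 0.32 (limma adjusted p = 0.686), so the Id genes had differences of -0.40, 1.27, 0.03 and 0.32 for Id1 to Id4. Among the proteins that Id proteins bind or oppose, the E protein genes Tcf3, Tcf4 and Tcf12 differed by -0.31, 0.05 and 0.05. Atoh1, the secretory lineage factor that pairs with E proteins, read 9.56, 8.57, 6.85 and 8.05 in Flattop and 4.65 to 7.61 in Lgr5-high arrays, a difference of 1.80 (SE 0.59) that did not pass limma (adjusted p = 0.309). It was 3.21 in the low and 0.39 in the high range (interaction limma adjusted p = 0.544). Neurog3, the enteroendocrine factor, differed by -1.66 (limma adjusted p = 0.501). It differed by 0.21 in the low range and by -3.53 in the high range, where it passed (limma adjusted p = 0.0377). The interaction of group and range did not pass for Neurog3 (limma adjusted p = 0.412). Of 6 villus tip genes Apoa4, an apolipoprotein that is also an enterocyte marker here, rose by 3.28 (SE 0.30, limma adjusted p = 0.000378). Within titles 38 to 46 alone its difference of 3.42 did not pass (limma adjusted p = 0.119). The ectonucleotidase Nt5e read 4.21, 5.56, 5.99 and 6.76 in Flattop and 3.77 to 4.53 in Lgr5-high arrays, a difference of 1.53 (SE 0.40) that did not pass (limma adjusted p = 0.149). Within titles 38 to 46 the difference was 2.49 and passed (limma adjusted p = 0.0459), and within titles 1 to 8 it was 0.57 (interaction limma adjusted p = 0.491). With Flattop replicate 1 left out it was 2.002 and passed too (limma adjusted p = 0.0057). Creb3l3 differed by 0.37 (limma adjusted p = 0.563) and the adenosine deaminase gene Ada by 0.11. Of the 6 villus tip differences 5 were positive and 1 was negative, that of Egfr at -0.61 (limma adjusted p = 0.708). For Egfr it was 0.45 in the low and -1.67 in the high range (interaction limma adjusted p = 0.626).

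**Figure D4:**
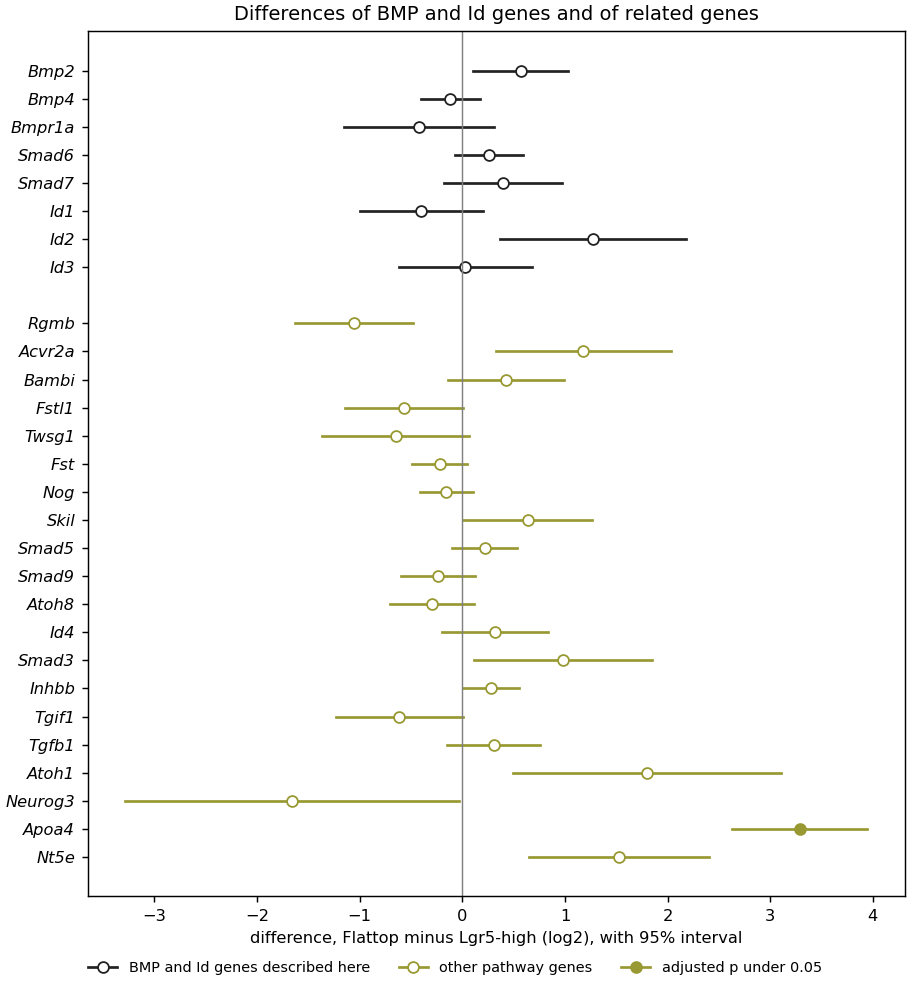
Difference in log2 intensity, Flattop minus Lgr5-high (x axis), with its 95% interval from limma for the 8 genes (black) and for other pathway genes (olive), filled where the adjusted p was under 0.05. Among the genes drawn Apoa4 alone is filled, at 3.28, and the intervals of Id2 (0.37 to 2.18) and Bmp2 (0.11 to 1.03) exclude 0 without adjustment.

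The 8 genes did not vary as a block. Over the 10 arrays the 28 pairwise Pearson correlations had a median of 0.07 and ran from -0.65 (Bmp4 with Smad7) to 0.75 (Bmp2 with Smad7). Id1 and Id3 had r = 0.52. These are descriptions over arrays that share groups and a normalisation. Among 17237 genes with ordinary names, the pattern most like Id2 was that of Arhgef2 (r = 0.958), followed by Slc39a9 (0.928) and Crot (0.924). For Id1 they were Czib, Mon1b and Aldh3b1 (r from 0.890 to 0.8965), for Id3 Sun1, Get3 and Ppa1 (0.903 to 0.948) and for Bmp2 Hcfc2, Wdfy1 and Focad (0.950 to 0.962). For Bmp4 they were Fpgs, Gss and Tnr (0.887 to 0.909), for Bmpr1a Pitrm1, Txndc16 and Esrp1 (0.901 to 0.907), for Smad6 Mthfd1l, Sh3bgrl3 and Dvl1 (0.896 to 0.924) and for Smad7 Ptprr, Chrm3 and Adam1b (0.8875 to 0.9325). With so many genes and 10 arrays, high values can arise between unrelated genes, and how high they run for other genes was not tested. No other of the 8 was among the 3 most alike of any.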

How the data were processed

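The authors deposited log2 intensities of probe sets, made by robust multi-array averaging (RMA) with oligo 1.38.0, per the submitters' processing notes. Any later filter is not stated there. Detection calls were not used here, and precision is limited by the number of arrays. Per the labels' protocols, cells were sorted, and RNA was extracted with miRNeasy Micro and amplified and labelled with Nugen's Ovation Pico WTA and Encore Biotin kits. Of 41345 probe sets, 23521 had 1 gene symbol, 1814 had several and 16010 were unnamed here. Entrez numbers of 23328 matched RefSeq genes of GRCm38.p6, and 0 symbols changed. Where a gene had several probe sets, that of highest mean was taken, which gave 22180 genes.

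Groups were compared with limma 3.58.1 (lmFit, eBayes) in R 4.3.3 as Flattop minus Lgr5-high. Tests were two-sided and p-values were adjusted over all genes (Benjamini-Hochberg, threshold 0.05), after a check on simulated data. Alternatives were a second quantile normalisation, median centring, genes under the 40th percentile left out, a trended and robust prior, array weights, blocks for replicate number and title number range, each range alone, each array left out and the mean of probe sets. The genes, lists and tests were chosen with earlier results of these data known. Named were the 8 genes, genes past the threshold and up to 4 of smallest p per pathway list, up to 3 per marker list or standing beside a result, and the 3 most correlated genes of each. Bmpr2, Grem1, Smad1, Smad4, Smad9, Id4, Tcf4, Tcf12, Ada, Pdgfra, Lum, Fos and Jun were named outside this rule, with their values seen, to complete a family or list. Plots used matplotlib 3.10.9.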

Additional observations from a re-analysis of the deposited data

Results flagged for a closer look

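Of 66 gene and group combinations examined for an array standing far from the rest of its group (33 genes in 2 groups), 4 did so, and chance gives about 1 in 20. None was among the 8 BMP and Id genes. Fstl1 read 7.51 on Lgr5-high replicate 1, where the other Lgr5-high arrays lay between 6.12 and 6.46. Nog read 4.71 on the same array, against 4.26 to 4.35 on the others. Twsg1 read 7.24 on Lgr5-high replicate 4, against 5.997 to 6.26. Ascl2 read 4.66 on Flattop replicate 3, against 5.25 to 5.34 on the other Flattop arrays, and this array also had the lowest Lgr5.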

How the results depend on the processing

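In each of 20 alternatives 0 of the BMP and Id genes passed limma; Bmp4 and Smad6 could not be fitted with dim genes left out, since they lay under that limit. Id2, Bmp2, Smad6 and Id1 kept their sign in all alternatives run. Within titles 38 to 46 the sign turned for Bmp4 (0.034), Smad7 (-0.066), Id3 (-0.344) and, outside the 8, Gdf5 (0.053); within titles 1 to 8 it turned for Bmpr1a (0.149), Neurog3 (0.208), Tcf3 (0.0042) and Egfr (0.449). Id3 also turned after a second quantile normalisation (-0.068) and with the replicate block (-0.008), and with arrays left out 1 at a time it ran from -0.20 to 0.31. The cause was not tested. Over all genes 203 passed, 200 of them higher and 3 lower. A second quantile normalisation gave 162 and 16. The count was 57 with the replicate block, which keeps the 8 arrays numbered 1 to 4, 77 among titles 1 to 8 (5 arrays) and 85, 10 of them lower, among titles 38 to 46 (5 arrays). With arrays left out 1 at a time it was 123 (without Flattop replicate 2) to 215, and 132 without Lgr5-high replicate 4. Replicate numbers 1 to 4 are shared by the groups, but deviations of same-numbered arrays correlated at 0.297, -0.206, -0.010 and 0.029, so the numbers were not treated as pairs. With that block Id2 was at 1.49 and Bmp2 at 0.499. Without detection calls, signal over background limits Bmp4, Smad6 and Bmp2.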
